A study of Mus musculus with 9 samples.

Results

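A set of 10 chemokine genes was examined in 9 RNA sequencing libraries of mouse retinal cells: the CC chemokines Ccl2, Ccl3, Ccl4, Ccl5, Ccl6, Ccl9 and Ccl12, and the CXC chemokines Cxcl10, Cxcl12 and Cxcl16. They were taken by symbol, as chemokines of glia, microglia and mural cells, and all 10 were listed among the 16367 genes of the sorted cells and the 17035 genes of the cultures. Of the libraries, 6 came from wild-type (WT) retinas, pooled by 4, from which cells carrying the glutamate transporter GLAST were drawn on magnetic beads. In the ocular hypertension (OHT) group (n = 3) both anterior chambers had received 1.2 µL of silicone oil, which raises the pressure in the eye. The sham group (n = 3) had the corneal incision without oil. The other group (n = 3) consisted of untreated primary cultures named Müller glia in the labels, grown in serum on gelatin from WT C57BL/6J pups 8 to 10 days old and passaged. The labels used here give neither the age of the sorted animals nor the time under raised pressure, and GLAST is also carried by astrocytes.

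Chemokines are small secreted proteins that guide leukocytes along gradients through receptors coupled to G proteins. In the CC family the first conserved cysteines are adjacent, and in the CXC family another residue lies between them. In the retina, activated microglia are a known source of Ccl3 and Ccl4, Müller glia and endothelium can make Ccl2 and Cxcl10, and Cxcl12 is a chemokine of stromal, mural and glial cells that acts through Cxcr4.

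In units of 1e6 reads, the sorted libraries held 37.8 to 53.6 and the cultures 66.3 to 76.7. Markers of microglia (11 of 12 listed) took 2.36% to 3.74% of sham totals and 2.74% to 3.87% of OHT totals, above the 13 Müller glia markers in each of the 6 sorted libraries, which took 0.514% to 1.33% and 0.291% to 0.601%. In the cultures the 13 Müller glia markers took 0.298% to 0.370%, within the range of the sorted libraries. The genes of that list differed. Rlbp1 was at 1.60 to 2.84 ppm (reads per 1e6 reads of the library) in the cultures, against 389 to 2090 ppm in the sorted libraries. Acta2, the smooth muscle actin of contractile cells, was at 8134 to 13250 ppm in the cultures. OHT replicate 1 stood apart: its normalised values summed to 65.8 in units of 1e6, against 37.8 to 44.1 in the other sorted libraries, so its values are lower relative to the rest when scaled to library totals. It held the highest value among the sorted libraries for 8 of the 10 chemokines.

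In the sorted cells Ccl4, Ccl12, Ccl3 and Ccl2 had the highest levels per transcript length, and the 10 genes together took 0.309% to 0.636% of sham reads and 0.462% to 0.867% of OHT reads. In the cultures they took 0.0257% to 0.0328%, nearly all of it Cxcl12 and Ccl2. Between OHT and sham, every OHT value of Cxcl12 lay under every sham value. The other 9 had higher means in OHT, with overlapping groups. None of the 10 passed limma's test at an adjusted p of 0.05.

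**Figure D1:**
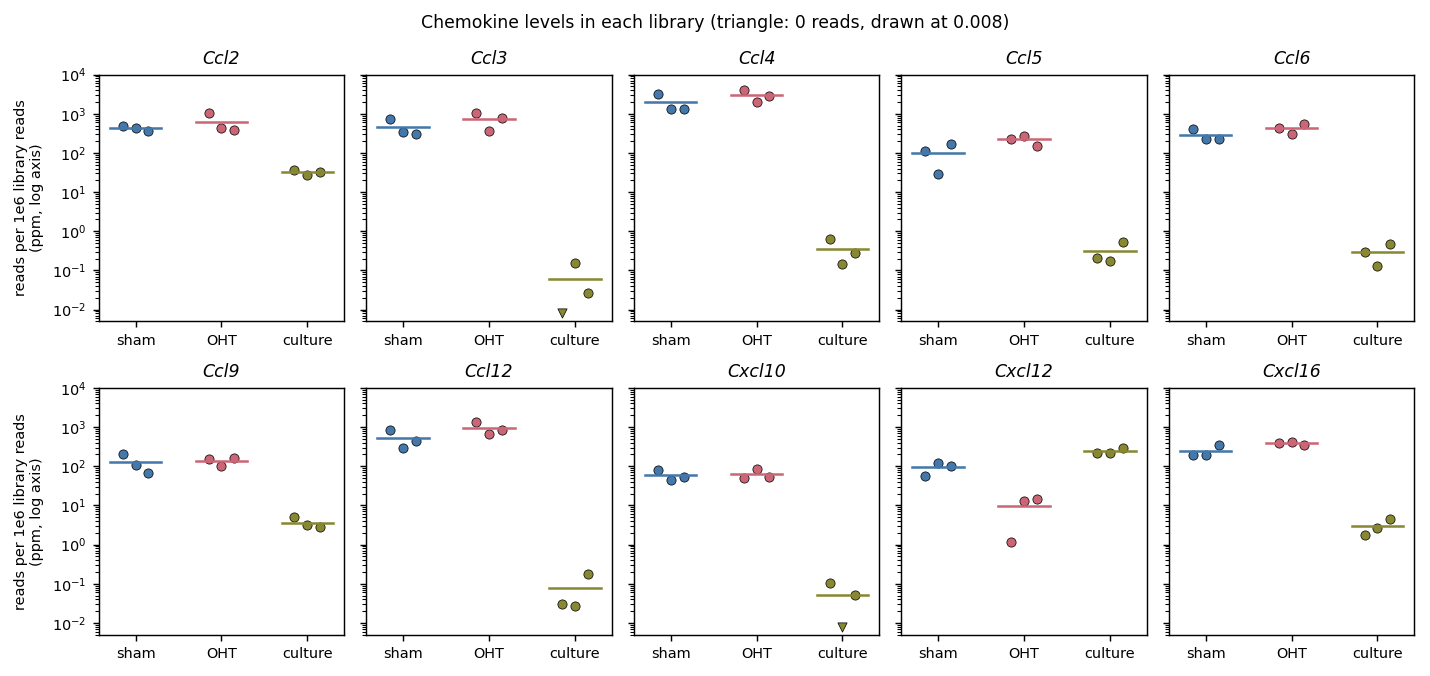
Level of each chemokine in each library, in reads per 1e6 library reads on a log axis, for sham, OHT and primary culture (points are libraries, lines are group means, triangles mark 0 reads). Cxcl12 is the 1 gene of the 10 whose culture values, 211 to 286 ppm, lie above all the sorted ones.

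The genes sit in clusters. In the RefSeq gene order (assembly GRCm38.p6) Ccl5, Ccl9, Ccl6, Ccl3 and Ccl4 are consecutive protein-coding genes on chromosome 11, and Ccl2 and Ccl12 lie in another cluster of that chromosome with Ccl7 and Ccl11 between them. Cxcl16 is elsewhere on chromosome 11, Cxcl10 on chromosome 5 and Cxcl12 on chromosome 6. No stretch of 50 bases of the longest coding transcript (GENCODE M21) was shared with a transcript of another gene for 9 of the 10. For Ccl9 1.995% of such stretches were, so its counts are less certain where reads from near-identical sequence were assigned to it.

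Promoter sequence was compared because Cxcl12 differed in direction from the other 9. RefSeq windows of 250 bases before the start (GRCm38.p6) were used for 6 members: Ccl3, Ccl6, Ccl9, Ccl12, Cxcl10 and Cxcl12. The windows shown are, 5′ to 3′ on the gene's strand, those of Cxcl12 (chr6:117168285-117168534, plus strand), Ccl12 (chr11:82101595-82101844, plus strand), a ligand of Ccr2, and Cxcl10 (chr5:92348890-92349139, minus strand), an interferon-inducible chemokine. Capitals mark matches, on either strand, to the NF-kB consensus, to the core of an interferon-stimulated response element (GAAA, any 2 bases, GAAA) or to TATAAA.
Cxcl12: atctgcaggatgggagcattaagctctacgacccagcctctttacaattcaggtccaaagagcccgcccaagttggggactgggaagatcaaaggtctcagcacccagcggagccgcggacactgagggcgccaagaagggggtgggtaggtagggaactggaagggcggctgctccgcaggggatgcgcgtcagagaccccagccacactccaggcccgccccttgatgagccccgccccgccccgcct
Ccl12: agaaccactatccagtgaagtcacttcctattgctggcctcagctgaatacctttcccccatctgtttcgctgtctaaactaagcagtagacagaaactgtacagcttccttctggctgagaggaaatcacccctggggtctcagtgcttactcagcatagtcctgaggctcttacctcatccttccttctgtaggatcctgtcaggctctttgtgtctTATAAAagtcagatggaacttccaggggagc
Cxcl10: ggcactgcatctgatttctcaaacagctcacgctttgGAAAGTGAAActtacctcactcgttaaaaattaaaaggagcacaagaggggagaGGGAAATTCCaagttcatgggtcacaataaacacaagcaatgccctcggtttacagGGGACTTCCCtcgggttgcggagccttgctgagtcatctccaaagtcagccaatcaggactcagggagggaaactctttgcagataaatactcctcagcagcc
The Cxcl10 window held 2 NF-kB matches, GGGAAATTCC and GGGACTTCCC, and 1 match to the interferon element, GAAAGTGAAA. The Ccl12 window held 1 TATAAA match, 31 to 26 bases before the start. No match lay in the windows of Cxcl12, Ccl3 and Ccl6, which says only that these letters are not there. The Ccl9 window held 1 NF-kB match and TATAAA matches on both strands, some of which overlap. Among 32851 windows of the same length in the table, 3.90% held the NF-kB consensus, 2.98% the interferon element and 12.4% TATAAA. Cxcl12 had the most GC-rich window of the 6, at 64.4% GC against 43.6% to 48.4% in the other 5 and a median of 52.4% over the table.

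Cxcl12 binds Cxcr4, through which it retains and attracts progenitors and leukocytes, and the scavenging receptor Ackr3. Its normalised value was 2159, 4717 and 4396 in sham replicates 1 to 3 and 77.4, 562 and 565 in OHT replicates 1 to 3. The groups did not overlap, and the highest OHT library lay well under the lowest sham library. The means were 3757 ± 1393 and 402 ± 281 (SD, n = 3). The log2 difference, on log2(normalised value + 1), was -3.60 (SE 0.72, limma adjusted p 0.332), and Cxcl12 had the 6th smallest p of the 14403 genes tested. Groups that do not overlap, with OHT lower, were found for 9.18% of these genes. Every alternative tried gave a lower value in OHT, between -4.08 and -2.65, the latter without OHT replicate 1, a library with 56 reads on the gene against 683 and 705 in the other OHT libraries. DESeq2 on recovered reads called it, with a log2 difference of -3.22 (SE 0.64) and an adjusted p of 0.000397, where it called 1.80% of genes with an adjusted p. edgeR gave an adjusted p of 0.422, and over the 18 alternatives the adjusted p ran from 0.000397 to 1.00. In bulk libraries, fewer cells of a type and less RNA per cell cannot be told apart.

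Marker lists of several cell types were also lower in OHT. The 14 mural and fibroblast markers took 0.0219% to 0.0740% of sham libraries and 0.00320% to 0.00810% of OHT libraries. The sham share came mostly through Vtn and Rgs5, with Pdgfra at 0, 4380 and 5361 in sham replicates 1 to 3. From 2 to 3 of the 14 markers were at 0 in a sham library and 1 to 6 in an OHT library. Of these markers 11 were tested, and 10 had a log2 difference below 0. Without overlap, with OHT lower, were 4 of the 11, against 9.18% of all genes. Rgs5 (3967, 7355 and 9634 in sham, 1937, 214 and 748 in OHT) and Vtn (3577, 14373 and 14363 against 930, 966 and 1759) were among the 4. For Kcnj8 and Cspg4 the means and the log2 difference went opposite ways. Kcnj8 had a mean of 148 in sham and 365 in OHT, where the libraries were at 1007, 52.7 and 35.3, and a log2 difference of -0.11. Cspg4 had means of 74.4 in sham and 28.4 in OHT and a log2 difference of 0.19. The 8 endothelial markers were at 0.0226% to 0.0488% in sham and 0.0109% to 0.0207% in OHT, with none at 0. The 6 astrocyte markers were at 0.0449% to 0.259% and 0.0289% to 0.0667%, with Pax2 at 0 in sham replicate 1 and OHT replicates 1 and 2, and the 14 rod markers at 0.336% to 2.95% and 0.141% to 0.449%, with none at 0. Sham replicate 1, the lowest sham library for Cxcl12, was also the lowest for the mural, astrocyte, Müller glia and rod lists. A fit with the mean of the rod markers as a covariate was added after seeing the data. There the Cxcl12 difference was -2.69 (SE 1.03, unadjusted limma p 0.0218), against an unadjusted limma p of 0.000365 without the covariate. That fit called 0 genes at an adjusted p under 0.05. No fit used the other lists of this paragraph, whose part in the Cxcl12 result was not tested.

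**Figure D2:**
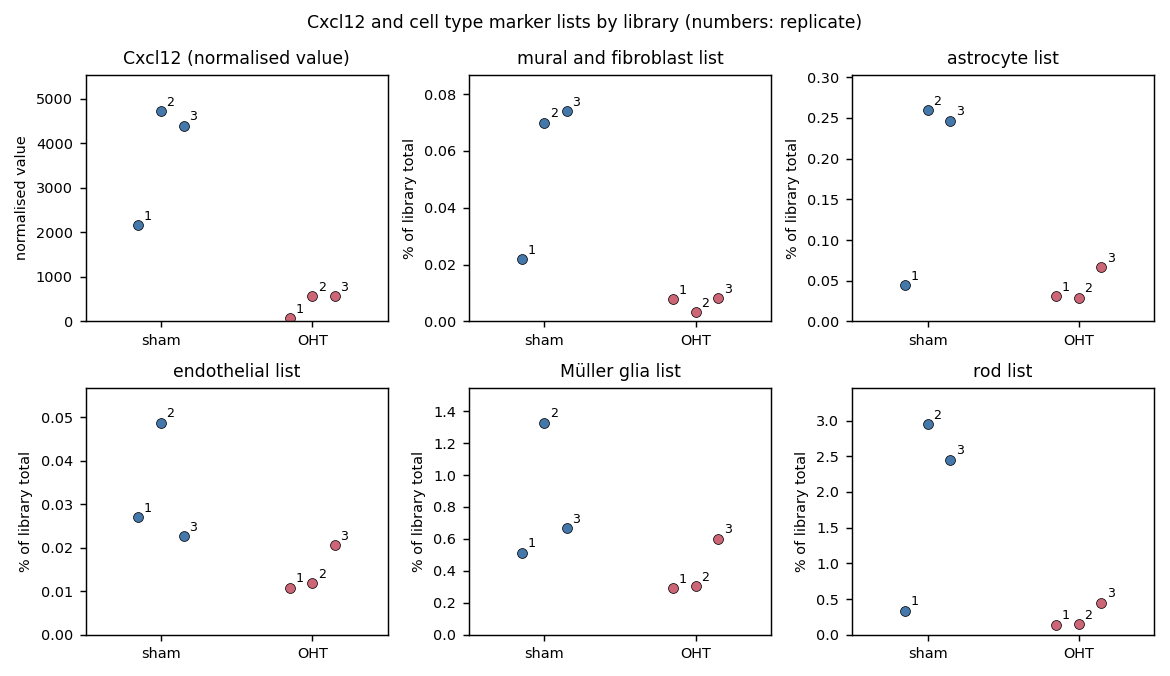
Cxcl12 (normalised value) and the summed share of 5 marker lists (percent of the library total) in the 3 sham and 3 OHT libraries, numbered by replicate. Sham replicate 1 lies below the other sham libraries for Cxcl12, at 2159, and for the mural and fibroblast list, at 0.0219%.

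Ccl3, Ccl4 and Ccl5 recruit monocytes and T cells. Ccl4 (macrophage inflammatory protein 1 beta) was at 125616, 52055 and 55292 in sham replicates 1 to 3 and 260151, 86018 and 107719 in OHT. OHT replicate 1 was highest, and sham replicate 1 lay above OHT replicates 2 and 3, so the groups overlapped. This gave a log2 difference of 0.91 (SE 0.51, limma adjusted p 0.497), and 0.43 without OHT replicate 1. Ccl3 (macrophage inflammatory protein 1 alpha) was at 29478, 13178 and 13146 in sham and 69197, 16394 and 28966 in OHT. Here sham replicate 1 lay above OHT replicates 2 and 3, and OHT minus sham was 0.90 on the log2 scale (SE 0.52, limma adjusted p 0.504), 0.34 without OHT replicate 1 and 1.38 without OHT replicate 2. Ccl5 (RANTES), a chemokine of T cells and of cells responding to interferon, was at 4344, 1129 and 7093 in sham and 15269, 12188 and 5809 in OHT. Only sham replicate 3 reached into the OHT range. Its log2 difference was 1.65 (SE 0.61, limma adjusted p 0.365), the largest among the 9 members that were higher in OHT, and 0.89 without sham replicate 2, the lowest library.

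Ccl6 and Ccl9, mouse chemokines of myeloid cells that act on Ccr1, lie next to each other in the genome. Ccl6 was at 16229, 9030 and 9432 in sham and 28530, 13145 and 20636 in OHT. Sham replicate 1 alone overlapped the OHT libraries (log2 difference 0.83, SE 0.38, limma adjusted p 0.433). Ccl9 was at 8236, 4305 and 2864 in sham and 10153, 4516 and 5975 in OHT, with the libraries interleaved (0.48, SE 0.45, limma adjusted p 0.660). It was 0.13 without sham replicate 3, 0.16 without OHT replicate 1, 0.74 without OHT replicate 2 and 0.89 without sham replicate 1. With the mean of the rod markers as a covariate, an alternative added after seeing the data, the Ccl9 difference was -0.29.

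Among the ligands of Ccr2, the receptor that brings inflammatory monocytes into tissue, are Ccl2 (monocyte chemoattractant protein 1) and Ccl12. Ccl2 was at 19484, 16515 and 15536 in sham and 69296, 19339 and 14708 in OHT. OHT replicate 1 alone lay above the sham range. The log2 difference of 0.66 (SE 0.51, limma adjusted p 0.596) was -0.020 without that library and 1.10 without OHT replicate 3. Ccl12 was at 32304, 11493 and 18530 in sham and 88660, 29772 and 31590 in OHT. Sham replicate 1 lay among the OHT values and the other sham libraries below them. Its log2 difference was 1.20 (SE 0.50, limma adjusted p 0.393), and 0.69 without OHT replicate 1.

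Cxcl16 is made as a membrane protein, binds Cxcr6 and is shed by Adam10. Its values were 7349, 7507 and 14765 in sham and 25972, 18217 and 13199 in OHT. Sham replicate 3 and OHT replicate 3 overlapped on this scale (log2 difference 0.98, SE 0.39, limma adjusted p 0.385). In ppm of each library's total the groups were just apart, with a highest sham value of 347 and a lowest OHT value of 349. Cxcl10, a ligand of Cxcr3, was at 3219, 1726 and 2287 in sham and 3337, 3734 and 2015 in OHT. The groups were mixed, with a log2 difference of 0.33 (SE 0.39, limma adjusted p 0.729) that was 0.08 when scaled to library totals and -0.36 with the rod covariate, both chosen after seeing the data. It was 0.11 without sham replicate 2, 0.15 without OHT replicate 2, 0.56 without sham replicate 1 and 0.60 without OHT replicate 3.

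Across the set, limma called 0 of 10 members and 0 of 14403 genes (0.00%) at an adjusted p under 0.05. edgeR also called 0 members and DESeq2 1. At an unadjusted limma p under 0.05 there were 3 members with higher values in OHT (Ccl5, Ccl12 and Cxcl16), where 5.37% of all genes met that rule, and 1 with lower values (Cxcl12), where 6.30% did. The count on the higher side was 0 without OHT replicate 1, without sham replicate 2, with the microglia covariate and with the rod covariate. Over all 14403 genes the counts there were 436, 233, 470 and 274, against 773 in the fit above. Of the members, 1 met the rule after quantile normalisation or with edgeR (813 and 759 of all genes). Without sham replicate 3 there were 2 (596 of all genes), and without sham replicate 1 there were 5 (606 of all genes). Fitting replicate number as a block gave the highest member count, 6, where 838 of all genes met the rule. In all, 9 of 10 members had a log2 difference above 0, against 45.2% of all genes, and 8 of 10 did without OHT replicate 1 and 7 of 10 with the rod covariate. The median log2 difference was 0.86 over the members and -0.12 over all genes. Over all genes it was -0.05 without OHT replicate 1 and -0.09 with the rod covariate. Groups that do not overlap, with OHT higher, were found for 0 of 10 members and 9.26% of genes. With the microglia markers as a covariate the log2 difference was 0.67 for Ccl12, 1.29 for Ccl5, 0.87 for Cxcl16, 0.58 for Ccl6, 0.40 for Ccl3 and Ccl4, 0.09 for Ccl2, 0.06 for Ccl9, 0.04 for Cxcl10 and -2.75 for Cxcl12. With the rod markers it was 0.36 for Ccl12, 0.23 for Ccl2, 0.21 for Ccl3, 0.09 for Ccl4, 0.91 for Ccl5, 0.40 for Ccl6, 1.14 for Cxcl16, -0.29 for Ccl9, -0.36 for Cxcl10 and -2.69 for Cxcl12.

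**Figure D3:**
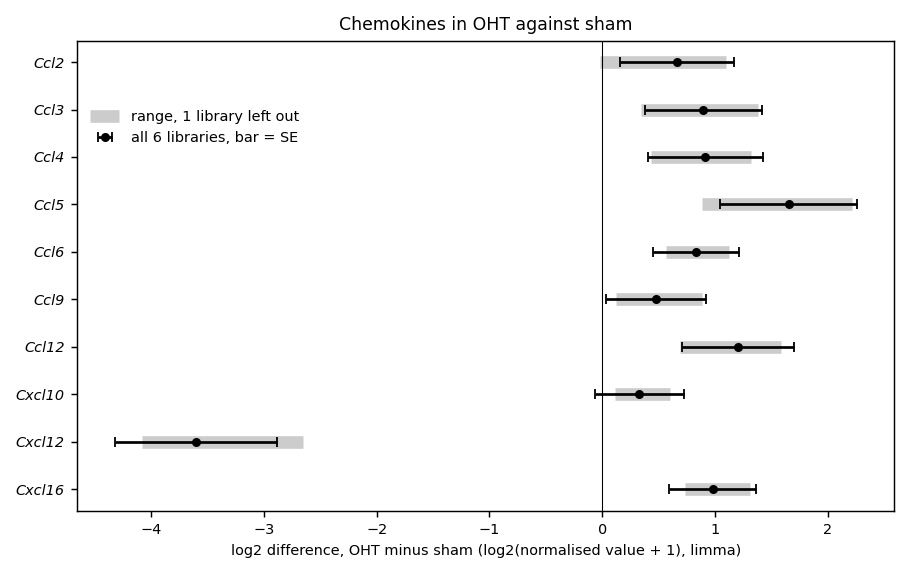
Log2 difference of OHT minus sham for each chemokine from limma (points, bars are SE), with the range when 1 library is left out in grey. Cxcl12 lies at -3.60, with a range of -4.08 to -2.65, and Ccl2 reaches -0.020 without OHT replicate 1.

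Activated microglia are a known source of Ccl3 and Ccl4. Each of the 10 genes was therefore also set against the summed microglia markers of its own library, as a value per 1000 marker units. The markers themselves differed between libraries. Of the 11, 4 (Aif1, C1qa, C1qb and Trem2) were higher in OHT without overlap, against 9.26% of all genes. C1qc was at 532205, 295380 and 22977 in OHT replicates 1 to 3. The ratios thus also move with the markers and are not levels per microglial cell. On this scale Cxcl12 was at 1.48, 4.54 and 4.38 in sham and 0.0304, 0.347 and 0.545 in OHT. The groups stayed apart (exact two-sided permutation p = 0.1, the smallest that 3 against 3 libraries can give). Ccl4 was at 85.9, 50.1 and 55.1 in sham and 102, 53.1 and 104 in OHT (exact permutation p = 0.3), and Ccl12 at 22.1, 11.1 and 18.5 against 34.8, 18.4 and 30.5 (exact permutation p = 0.3). Both sets of values overlapped. The log2 ratio of OHT to sham means was 0.44 for Ccl4, 0.70 for Ccl12, 0.78 for Ccl5, 0.51 for Ccl3, 0.43 for Ccl6, 0.34 for Cxcl16 and 0.25 for Ccl2. Ccl9 (-0.01) and Cxcl10 (-0.14) were near 0. The smallest exact permutation p among the 9 genes other than Cxcl12 was 0.3. The 8 monocyte and macrophage markers took 0.140%, 0.167% and 0.852% of sham replicates 1 to 3 and 1.35% to 1.64% of OHT libraries, mostly through Lyz2, with none at 0. Their part in these values was not tested.

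**Figure D4:**
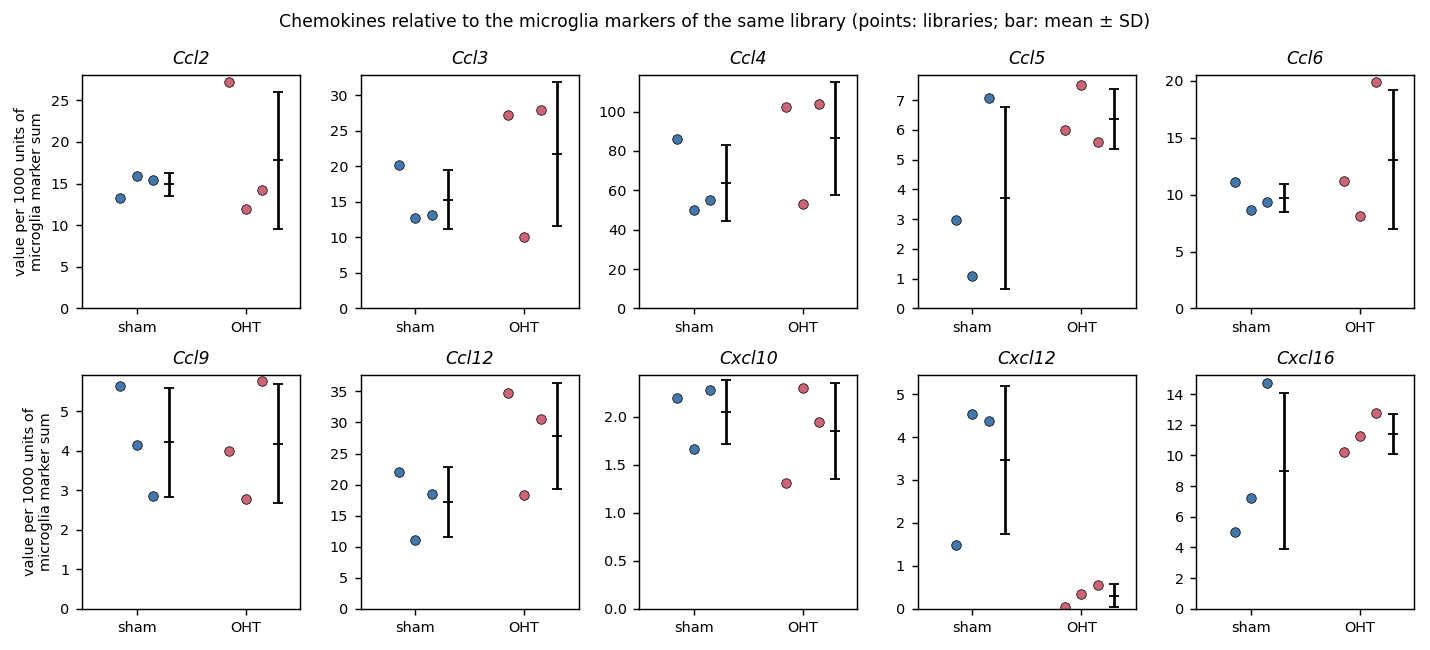
Each chemokine as a value per 1000 units of the summed microglia markers in the same library, for 3 sham and 3 OHT libraries (points, bars are mean ± SD). Cxcl12 is the 1 gene of the 10 without overlap, with OHT at 0.0304 to 0.545 and sham at 1.48 to 4.54.

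Levels can be compared between genes only per transcript length, here as ppm per kb of the longest coding transcript. In sham the order of these length-scaled levels was Ccl4 (2948 ± 1665, SD, n = 3), Ccl12 (965 ± 515), Ccl3 (609 ± 326), Ccl2 (526 ± 82.6), Ccl6 (201 ± 76.1), Ccl5 (192 ± 131), Cxcl16 (89.7 ± 33.7), Cxcl10 (44.3 ± 14.8), Ccl9 (43.0 ± 24.5) and Cxcl12 (16.5 ± 5.97). Ccl4 lay above the other 9 genes in range and, with the longest transcript, Cxcl12 below them. With the shortest coding transcripts, Cxcl12 took 1.08% of the summed length-scaled level in sham (0.336% to 1.63%). Cxcl10 took 1.00% and Ccl9 0.747% there, with ranges that overlapped that of Cxcl12. The last place of Cxcl12 in sham thus depends on the transcript, while in OHT it stayed lowest, at 0.0701%. Ccl12, Ccl3 and Ccl2 overlapped. Ccl5 (53.9 to 313) overlapped Ccl6, Cxcl16, Cxcl10 and Ccl9, and Ccl9 also overlapped Cxcl10 and, narrowly, Cxcl16. In OHT the order was the same but for Ccl5 (415 ± 117), which lay above Ccl6 (296 ± 86.4). Among the OHT ranges those of Ccl12, Ccl3 and Ccl2 overlapped, Ccl5 overlapped Ccl6, Ccl3 and Ccl2, and Cxcl10 overlapped Ccl9. Ccl4 made up 45.7% to 55.9% of the summed length-scaled level of the 10 genes in the sham libraries and 47.5% to 52.4% in OHT. Ccl12 took 14.0% to 18.8% and 18.9% to 20.7%. Ccl4 ranked first in each of the 6 sorted libraries.

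In the cultures the order was another. Cxcl12 was at 211, 223 and 286 ppm, above the sham (55.3, 120 and 103 ppm) and OHT libraries (1.18, 12.7 and 15.0 ppm). Ccl2 was at 37.3, 27.1 and 33.3 ppm, under every sorted library (365 ppm or more). The tables were normalised separately, so these levels are set side by side with no test. Cxcl12 and Ccl2 made up 49.3% ± 5.51 and 46.3% ± 5.47 of the length-scaled sum (SD, n = 3). With the shortest coding transcript of each gene in place of the longest, Cxcl12 took 74.3% and Ccl2 23.5%, since the coding transcripts of Cxcl12 range from 1878 to 5627 bases.

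Several of the other chemokines were near the detection limit in the cultures. Ccl3 had 0, 12 and 2 reads in culture replicates 1 to 3, where a count of 0 allows up to 0.0452 ppm, and Ccl12 had 2, 2 and 14 reads. Cxcl10 had 7, 0 and 4 reads. Ccl4 was at 0.618, 0.145 and 0.287 ppm, against 1299 to 3954 ppm in the sorted libraries. Ccl5 (0.172 to 0.534 ppm) and Ccl6 (0.132 to 0.469 ppm) were as low, and Cxcl16 (1.79 to 4.50 ppm) and Ccl9 (2.85 to 4.93 ppm) somewhat higher. The microglia markers took 0.00912% to 0.0142% of the culture libraries. The mural and fibroblast markers took 1.63% to 1.93%, mostly through Acta2 and Col1a1. Among the microglia markers Tmem119 was at 44.9 to 76.7 ppm, against 2.50 to 7.06 ppm for C1qb and 2.65 to 5.54 ppm for Csf1r. The part of these lists in the chemokine levels was not tested.

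**Figure D5:**
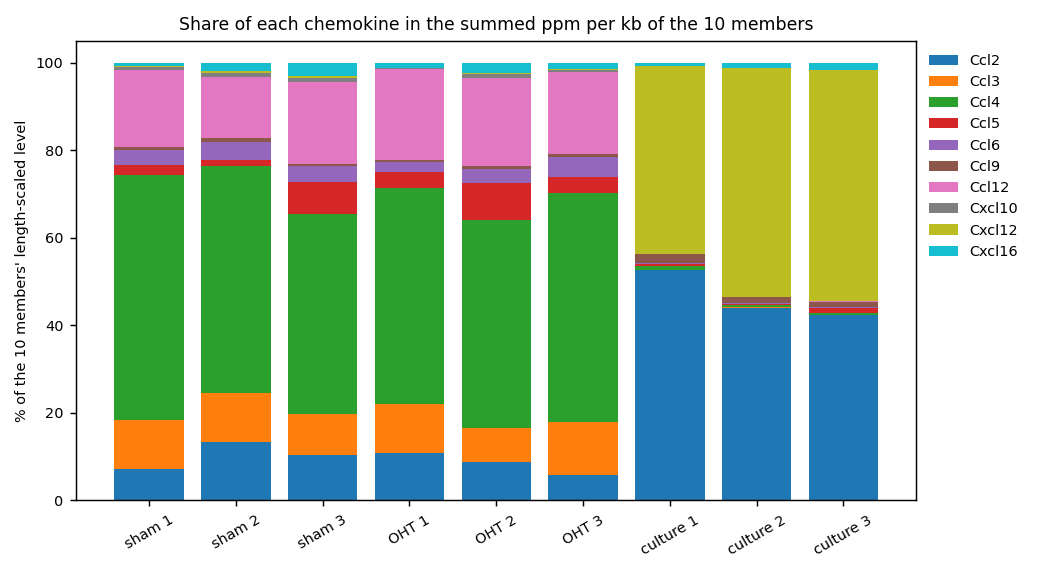
Share of each chemokine in the summed length-scaled level (ppm per kb) of the 10 genes in each of the 9 libraries. Ccl4 leads every sorted library, and Cxcl12 and Ccl2 together fill nearly all of the 3 cultures.

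Of 23 genes on the list of chemokine receptors, 17 were tested, 0 passed, and the median log2 difference was 0.05. Without adjustment, 2 of the 17 reached p under 0.05 with higher values in OHT, against 5.37% of all genes, and 0 with lower values, against 6.30%. Ccr2, the receptor of Ccl2 and Ccl12 on inflammatory monocytes, was at 54.8, 73.8 and 1541 in sham and 598, 1543 and 1272 in OHT (2.51, SE 1.07, limma adjusted p 0.407). Sham replicate 3 lay with the OHT libraries here. Cxcr4, the receptor of Cxcl12, was at 83.7, 119 and 412 in sham and 818, 510 and 333 in OHT (1.69, SE 0.76, limma adjusted p 0.422). OHT replicate 3 lay within the sham range. Cx3cr1, the fractalkine receptor of microglia, was at 54773 to 90843 and 65883 to 77004 (0.05, SE 0.35, limma adjusted p 0.957). Ccrl2, a non-signalling receptor that holds chemerin, was at 12226 to 18168 in sham and 19258 to 25938 in OHT, without overlap (limma adjusted p 0.468). Xcr1, a receptor of dendritic cells, was low, at 72.3 to 114 in sham and 0 to 44.2 in OHT (limma adjusted p 0.444). Of the 17, 1 did not overlap with OHT higher and 1 with OHT lower, against 9.26% and 9.18% of all genes.

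Of 28 other chemokine genes 18 were tested and 0 passed, with a median log2 difference of 0.50. Of the 18, 2 had higher values at an unadjusted p under 0.05, against 5.37% of all genes, and 1 had lower values, against 6.30%. The lower one was Cx3cl1, or fractalkine, the neuronal and endothelial ligand of Cx3cr1, at 63.0, 313 and 152 in sham and 5.53, 4.94 and 0 in OHT (OHT minus sham -5.43 in log2, SE 1.37, limma adjusted p 0.332). The groups did not overlap, which with OHT lower held for 1 of the 18, against 9.18% of all genes. With OHT higher, another 1 of the 18 did not overlap, against 9.26% of all genes. The OHT values of Cx3cl1 rest on a few reads each. The higher ones were Cxcl13, a B cell attractant (248, 37.8 and 250 against 1998, 620 and 230), and Ccl8, another monocyte attractant (31.0, 30.4 and 1642 against 1737, 604 and 749), with limma adjusted p of 0.397 and 0.414. Sham and OHT libraries overlapped for both. Ccl7, the neighbour of Ccl2, followed the same pattern as Ccl2, with 47624 in OHT replicate 1 and 6858 to 11617 in the other 5 libraries. Cxcl2, a neutrophil attractant, was at 37084 in that library and 5795 to 11522 elsewhere, and Pf4, a platelet and macrophage chemokine, at 16034 there and 2241 to 9524 elsewhere.

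Of 7 processing enzymes 6 were tested and 0 passed. At an unadjusted limma p under 0.05 there were 0 with higher and 0 with lower values, against 5.37% and 6.30% of all genes. Groups did not overlap, with OHT higher, for 2 of the 6, against 9.26% of all genes. Adam17, which sheds membrane proteins such as Cx3cl1, was at 3855 to 4838 in sham and 5463 to 5899 in OHT, without overlap (limma adjusted p 0.566). Furin, a proprotein convertase, did not overlap either, at 401 to 817 and 891 to 1597 (limma adjusted p 0.429), while Adam10 (4873 to 10751 and 7737 to 10349) and Dpp4, which trims chemokines at their start (11.1 to 172 and 45.6 to 216), overlapped. Of 14 inducers and regulators of chemokine transcription all 14 were tested and 0 passed. At an unadjusted limma p under 0.05 there was 1 with higher values and 0 with lower ones, against 5.37% and 6.30% of all genes. Groups did not overlap, with OHT higher, for 1 of the 14, against 9.26% of all genes. Il1b was at 4058, 4071 and 9524 in sham and 20658, 7960 and 15365 in OHT (OHT minus sham 1.33 in log2, SE 0.45, limma adjusted p 0.343), with sham replicate 3 in the OHT range. Tlr2, a receptor of microbial lipopeptides, was at 8180 to 16544 and 18953 to 19909, without overlap (limma adjusted p 0.432). Nfkbia, the NF-kB inhibitor that NF-kB itself induces, was high in both groups, at 47558 to 95350 and 62456 to 122426, and Rela, an NF-kB subunit, was at 3710 to 5084 and 1279 to 4039 (limma adjusted p 0.681 and 0.520).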

How the data were processed

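RNA of 6 sorted and 3 cultured libraries was amplified from low input and sequenced as paired reads, per the labels. Per the submitters' processing notes the tools were bcl2fastq 2.20, Trim Galore 0.6.6, FastQC 0.11.9 and STAR 2.7.1a with build mm39. For the counting program and annotation the sources used here name nothing. The deposited signal is 1 normalised value per gene and library, a read count divided by 1 factor per library and not by length. Dividing each column by its smallest step returned whole reads for 100% of the sorted values (tolerance 0.05 reads). For the third culture that step is nearly 1, so its recovered reads could not be checked this way.

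OHT was compared with sham by limma 3.58.1 (R 4.3.3, variance trend) on log2(value + 1) over 14403 genes (mean value 10 or more in the sorted libraries), with Benjamini-Hochberg adjustment over all of them. This scale understates changes of low genes. edgeR 4.0.16 (quasi-likelihood) and DESeq2 1.42.0 were run on the recovered reads. Each fit was tested on simulated counts with planted changes. These were larger in log2 than the limma differences of the members higher in OHT, so changes of that size were not covered. Figures and permutation tests used Python 3.11.15, scipy 1.17.1 and matplotlib 3.10.9. Counting limits cover counting error only. Whether libraries of a group came from separate animals is not stated beyond the pooling, so p-values measure the spread between these samples.

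The members, lists and alternatives were chosen with earlier results of these data known. From each list the 3 genes with the smallest p and the 3 of highest mean were named, since none passed. A gene that this rule names is not reported here. Genes of marker lists named beside a result, and Cxcl5, Ppbp, Cxcr6 and Cx3cl1 in the cultures, were chosen after their values were seen. Of the lists, those of T cells and neutrophils took at most 0.00147% and 8.06e-05% of a sorted library.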

Additional observations from a re-analysis of the deposited data

How the results depend on the processing

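The count of genes called by limma, 0, was 2 with the replicate block, 1 with the microglia markers as a covariate, 250 with DESeq2 and 0 to 12 when 1 library was left out (12 without sham replicate 1, 7 without sham replicate 3). The cause was not tested. The count of members called was 0 under all of these but DESeq2, which gave 1 (Cxcl12), and 0 when any 1 library was left out. Among the alternative values of member differences 176 kept their direction and side of the threshold, 1 came past it (Cxcl12 with DESeq2) and 3 changed direction: Ccl2 was -0.020 without OHT replicate 1 (range over libraries left out -0.020 to 1.10), and with the rod covariate Ccl9 was -0.29 and Cxcl10 -0.36. The cause was not tested. Per microglia marker units, leaving out 1 library gave -0.19 to 0.47 for Ccl2, -0.011 to 0.68 for Ccl6, -0.31 to 0.26 for Ccl9 and -0.33 to 0.054 for Cxcl10, and the geometric mean of the markers gave 0.11 for Ccl9. Leaving out 1 culture gave mean levels of 0.0130 to 0.0923 ppm for Ccl3, 0.0283 to 0.106 ppm for Ccl12, 0.0261 to 0.0788 ppm for Cxcl10, 0.216 to 0.452 ppm for Ccl4 and 0.191 to 0.373 ppm for Ccl5. Whether the replicate numbers pair the samples was not settled. Deviations of same-numbered sham and OHT libraries correlated at 0.0776, -0.0246 and -0.0451, and those of differently numbered ones at -0.073 to 0.0995. Deviations from means of only 3 libraries can neither show nor exclude a pairing. With the replicate block the Cxcl12 difference of -3.60 had a limma adjusted p of 0.0509, and 0 members were called. Over all genes tested the median was -0.36 when scaled to library totals, an alternative added after seeing the data, and 0.01 after quantile normalisation, against -0.12. Depth limits the culture levels of Ccl3, Ccl4, Ccl5, Ccl6, Ccl12 and Cxcl10, each with 14 reads or fewer in at least 1 culture, and the OHT values of Cx3cl1.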

Other observations

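The cultures held other chemokine and receptor genes that were lower in the sorted cells. Cxcl5, a neutrophil attractant, was at 23.5 to 48.2 ppm in the cultures and at 0.429 ppm or less in the sorted libraries. Ppbp, a platelet chemokine, was at 37.2 to 78.3 ppm in the cultures and at 0.657 ppm or less in the sorted libraries. Cxcr6, the receptor of Cxcl16, was at 14.5 to 18.5 ppm in the cultures and at 2.72 ppm or less in the sorted libraries. Cx3cl1 was at 11.2 to 15.4 ppm in the cultures, against 1.61 to 7.95 ppm in sham and at most 0.112 ppm in OHT. The tables were normalised separately, so none of these levels was tested.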
